A study of Danio rerio with 24 samples.

Results

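The mitochondrial ribosomal protein genes, named mrpl for the large and mrps for the small subunit, were described in primordial germ cells (PGCs) of zebrafish. They were chosen by name, with earlier results of these data known, as every gene called mrpl or mrps followed by a number. This gave 74 of the 32520 genes in the expression tables, 46 mrpl and 28 mrps genes. All 74 were measured, and 73 were above 0 in every one of the 20 libraries; the exception was mrpl58.

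Mitochondria hold their own ribosome, the mitoribosome, which translates the few messages of the mitochondrial genome, all of them for subunits of the respiratory chain and ATP synthase. Its RNAs come from the mitochondrial genome, but its proteins are encoded in the nucleus, made in the cytosol and imported. Some of these proteins descend from bacterial ribosomal proteins, and the others were added during the evolution of mitochondria.

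PGCs carrying a fluorescent label were sorted from embryos kept in Holtfreter's water, a salt solution, at 2 ages: gastrulas at 75% epiboly and embryos 1 day post-fertilization (1 dpf). In the knockout experiment each stage had 3 wild-type control libraries and 3 libraries of smad1-cKO embryos, in which smad1, a transcription factor of BMP signalling, was knocked out in the germline. In the knockdown experiment each stage had 2 libraries of wild-type embryos injected with a control morpholino (control-MO) and 2 of wild-type embryos injected with a smad1 morpholino (smad1-KD), an antisense oligomer that is not confined to the germline. The series asks how Smad1 acts in PGC proliferation; the labels name no clutches, so each p-value reflects library-to-library spread alone, and that spread may be technical.

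Levels are in TPM, a share of all transcripts corrected for transcript length, so that levels can be set side by side between genes. TPM keep no read depth, so depth is unknown here. The number of genes above 0 per library ran from 13371 to 18508 at 75% epiboly and from 21330 to 24547 at 1 dpf. It thus differed between the stages without overlap, and its part in the stage differences was not tested. The germ cell genes nanos3 and ddx4 were present in all 20 libraries. The 9 germ cell markers together took 0.427 to 2.23% of all TPM in controls at 75% epiboly and 1.52 to 1.95% at 1 dpf, against 0.0785 to 0.108% and 0.152 to 0.522% in control-MO libraries. The 13 blood genes took 1.01 to 3.91% in control-MO and 5.84 to 13.2% in smad1-KD libraries at 1 dpf, against 0.00175 to 0.00357% in controls, where cahz, gata1a, hbbe2 and hbae1.1 were at 0 throughout. At 1 dpf the targeted gene smad1 stood at 140, 140 and 134 TPM in controls, against 16.4, 12.5 and 11.7 TPM in smad1-cKO libraries (limma adjusted p = 0.000527).

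Together the 74 genes took a larger share of the PGC transcriptome at 1 dpf than at 75% epiboly. In controls the share was 0.375, 0.373 and 0.254% of all TPM at 75% epiboly and 1.68, 1.63 and 1.62% at 1 dpf, a ratio of means of 4.93. In control-MO libraries it was 0.319 and 0.328% and then 0.926 and 0.765%, a ratio of 2.62. The stages did not overlap in either set, and the control-MO libraries lay below the controls at 1 dpf but between the controls at 75% epiboly. These are bulk libraries, in which fewer cells of a type and less RNA per cell cannot be told apart, and each stage has its own tables, so that stage and table cannot be told apart either.

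**Figure D1:**
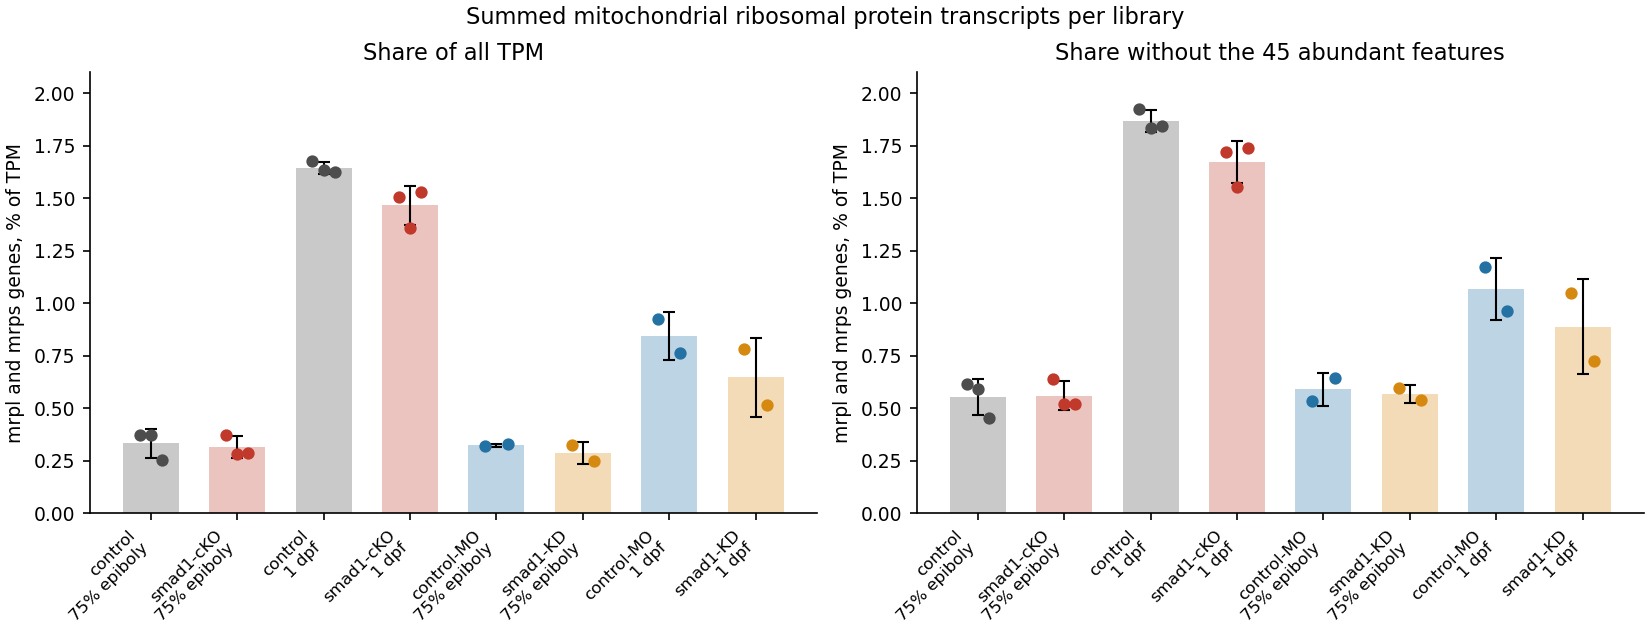
Summed TPM of the 74 mrpl and mrps genes per library as a percent of all TPM (left) and after 45 abundant mitochondrial genome and ribosomal RNA features were taken out (right). Points are libraries, bars are group means and error bars are SD (n = 3 in the knockout and n = 2 in the knockdown experiment); controls at 1 dpf sit between 1.62 and 1.68% and all 10 libraries at 75% epiboly at or below 0.375% in the left panel.

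The share of each gene also depends on what else is in the library. In controls the 45 abundant features, transcripts of the mitochondrial genome and ribosomal RNAs, took 36.9 to 44.3% of all TPM at 75% epiboly and 10.9 to 12.9% at 1 dpf. In control-MO libraries they took 40.5 to 49.3% and 20.6 to 21.0%. Without them the ratio of mean shares between the stages was 3.37 in controls and 1.81 in control-MO libraries, lower than with them in each set.

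The members differed widely in level. Averaged over the 20 libraries, mrps10 (356 TPM), mrpl53 (307 TPM), mrpl20 (290.2 TPM), mrpl18 (271 TPM), mrpl42 (243 TPM) and mrps18a (229 TPM) were the most abundant. The lowest were mrps15 (21.6 TPM), mrpl22 (16.4 TPM), mrps35 (16.1 TPM) and mrpl58 (13.6 TPM). The median member stood at 39.0 TPM in controls at 75% epiboly and at 192 TPM at 1 dpf, and in control-MO libraries at 36.5 and 87.7 TPM. The most abundant member was mrpl21 in controls at 75% epiboly (158 TPM) and mrps10 at 1 dpf (868 TPM), so the order of the genes was not the same at the 2 stages. Over the 74 genes, log2 mean TPM at 75% epiboly and at 1 dpf had a Pearson r of 0.651 and a Spearman rho of 0.622 in controls, a description across genes that share libraries.

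Between 75% epiboly and 1 dpf, 68 of the 74 members rose in controls and none fell, by limma on log2(TPM + 1) with Benjamini-Hochberg adjusted p under 0.05 over all 16536 genes tested. Among all genes tested, 42.8% rose and 11.1% fell. The log2 differences of the members ran from 0.64 to 5.25, with 43 above 2 and 14 above 3, and their median was 2.21 against 0.99 for all genes tested. In 73 members every library at 1 dpf lay above every library at 75% epiboly, against 48.3% of all genes tested. The standard error of a member's difference had a median of 0.33 on the log2 scale. Muscle genes were also higher at 1 dpf, 7 of 8 tested by the same test, with a summed share of 0.00019 to 0.000524% and then 0.00828 to 0.0132% of all TPM; their part in the result was not tested.

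Of the proteins with a bacterial relative in the large subunit, 28 of 30 rose, with a median log2 difference of 2.21. The gene mrpl35 stood at 19.0, 16.2 and 10.9 TPM at 75% epiboly and at 274, 261 and 310.1 TPM at 1 dpf. Its difference was 4.14 ± 0.30 on the log2 scale (SE, 17.6-fold, limma adjusted p = 7.52e-05). A low and narrow start therefore met a high end with no overlap. The gene mrpl18, for a protein that in bacteria binds 5S ribosomal RNA, went from 112, 101 and 105 TPM to 643, 688 and 588 TPM. Its difference was 2.58 ± 0.19 (limma adjusted p = 8.34e-05), smaller than that of mrpl35 but with the smallest standard error of the members. For mrpl20, whose bacterial relative is needed for assembly of the large subunit, the values were 63.7, 106 and 52.6 TPM and then 762, 682 and 759 TPM (3.35 ± 0.29). The stalk proteins, which in bacteria recruit the translation factors, were not alike. The gene mrpl10 stood at 13.2, 6.83 and 7.04 TPM at 75% epiboly and at 139, 149 and 129 TPM at 1 dpf (3.86 ± 0.34, limma adjusted p = 0.000145). Its partner mrpl12 went from 37.1, 53.4 and 44.3 TPM to 102, 81.4 and 122 TPM (1.16 ± 0.29, limma adjusted p = 0.0111). Both rose without overlap, mrpl12 from the higher start; the difference between these 2 changes was not tested. The gene mrpl33 rose by 3.26 ± 0.29, and mrpl4, whose bacterial relative lines the tunnel through which the new protein leaves, by 3.70 ± 0.49.

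Of the large subunit proteins particular to mitochondria, 17 of 18 rose, with a median log2 difference of 2.36. The widest difference among all members was that of mrpl53, at 8.87, 28.1 and 25.2 TPM at 75% epiboly and at 793, 781 and 673 TPM at 1 dpf. On the log2 scale it rose by 5.25 ± 0.42 (38.1-fold, limma adjusted p = 0.000108), and at 1 dpf it was the second most abundant member after mrps10. The gene mrpl52 stood at 18.2, 12.3 and 7.30 TPM and then at 259, 307 and 267 TPM (4.44 ± 0.36). For mrpl48 the values were 17.0, 6.72 and 10.7 TPM and then 218, 186 and 211 TPM (4.13 ± 0.36). None of these genes overlapped between the stages. The gene mrpl45, which in human mitoribosomes sits at the tunnel exit next to the inner membrane, rose by 3.46 ± 0.42. The gene mrpl58 encodes a peptidyl-tRNA hydrolase that frees stalled mitoribosomes and is built into the large subunit in humans. It was the lowest member at 75% epiboly, at 1.503, 1.70 and 5.39 TPM, and stood at 27.8, 31.5 and 20.3 TPM at 1 dpf (2.95 ± 0.46, limma adjusted p = 0.00146).

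In the small subunit, 14 of 16 proteins with a bacterial relative and 8 of 9 particular to mitochondria rose, with median log2 differences of 1.88 and 1.96. The member with the smallest p was mrps10, at 112, 117 and 88.2 TPM at 75% epiboly and at 733, 954 and 917 TPM at 1 dpf. Its difference was 3.03 ± 0.22 (8.16-fold, limma adjusted p = 7.52e-05), and its lowest library at 1 dpf stood above every other member's mean in that group except mrpl53 and mrpl20. The gene mrps14 went from 6.52, 6.85 and 24.5 TPM to 204, 158 and 179 TPM (3.97 ± 0.49), the widest difference of the small subunit. The gene mrps25, particular to mitochondria, stood at 14.1, 15.6 and 10.03 TPM and then at 114, 130 and 115 TPM (3.10 ± 0.30, limma adjusted p = 0.000193). The gene mrps36, whose human protein is now counted as a subunit of the 2-oxoglutarate dehydrogenase complex and not of the ribosome, also rose, by 2.52 ± 0.37 (limma adjusted p = 0.00105).

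Summed by name, the TPM of the mrpl genes were 1.47 to 1.75 times those of the mrps genes in controls at 75% epiboly and 1.87 to 1.99 times at 1 dpf. The ranges did not overlap in controls. In control-MO libraries the ratio was 1.57 and 1.58 at 75% epiboly and 1.66 and 1.73 at 1 dpf, likewise without overlap. The stages did overlap in smad1-cKO libraries, at 1.72 to 1.89 and then 1.82 to 2.03. They also overlapped in smad1-KD libraries, at 1.22 and 1.585 and then 1.48 and 1.74.

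The genes mrps18a, mrps18b and mrps18c are relatives of 1 bacterial protein. In human structures the product of the first lies in the large subunit and those of the other two in the small one. In controls mrps18a stood at 184, 105 and 56.0 TPM at 75% epiboly and at 559, 522 and 490.5 TPM at 1 dpf (2.34 ± 0.40). The gene mrps18c went from 120.2, 66.8 and 28.5 TPM to 342, 330 and 320.4 TPM (2.41 ± 0.47). The gene mrps18b went from 86.4, 67.8 and 34.9 TPM to 137, 160 and 123 TPM (1.22 ± 0.37). All 3 rose without overlap (limma adjusted p = 0.00214, 0.00385 and 0.0233), and all 3 had their lowest value at 75% epiboly in the same control library, replicate 3. That library also had the lowest summed share of the 74 genes among these controls, 0.254%. Its germ cell markers took 0.427% against 1.69 and 2.23% in replicates 1 and 2. Without it the members' median stage difference in controls was 2.01 against 2.21. The differences between these changes were not tested.

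The 6 members that did not pass the test had positive differences. They were mrpl51 (0.93, limma adjusted p = 0.0511), mrps5 (1.05, 0.0556), mrps35 (0.80, 0.0808), mrpl21 (0.75, 0.0987), mrps28 (0.64, 0.101) and mrpl1 (0.65, 0.284). For mrpl1, whose bacterial relative forms the stalk near the exit of used tRNAs, the values were 10.7, 31.3 and 35.9 TPM and then 46.8, 30.2 and 35.3 TPM. It was the 1 member whose stages overlapped in controls.

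**Figure D2:**
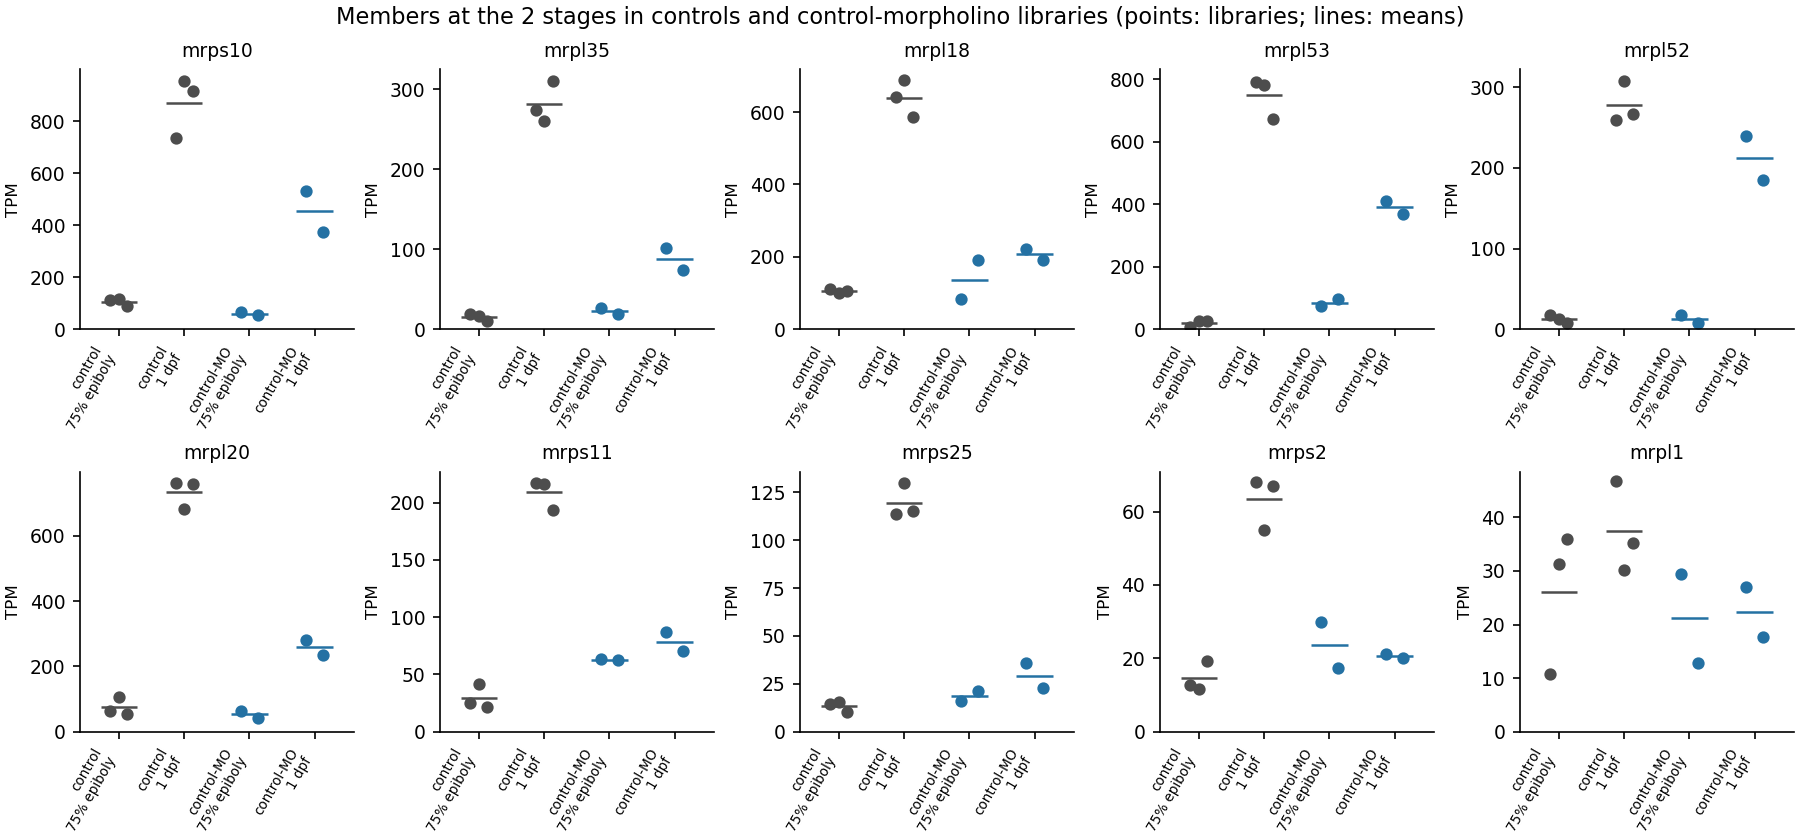
TPM of 10 members in each library at both stages, in controls (grey, n = 3) and control-MO libraries (blue, n = 2), on linear axes that start at 0; points are libraries and lines are group means. Controls at 1 dpf stand apart from controls at 75% epiboly for each gene except mrpl1, and mrpl1 and mrps2 show no such gap in control-MO libraries.

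Scaling moved all genes, and the members with them. The median of all genes tested in controls was 0.99 as deposited, 0.04 after quantile normalization, 0.37 after TMM-style scaling and 0.57 without the abundant features. The calls over all genes moved from 7085 higher and 1828 lower to 3905 and 3956, 5123 and 2969, and 5686 and 2687. The members' median minus that of all genes was 1.22, 1.49, 1.17 and 1.09 in the same order, and 68, 58, 58 and 60 members rose, with none lower.

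Genes that serve or accompany the mitoribosome were read from lists of names, each beside the 42.8% of all genes tested that rose and their median of 0.99. All 5 further subunits found (dap3, gadd45gip1, ptcd3, aurkaip1 and chchd1) rose in controls, with a median log2 difference of 1.91. Of 28 mitoribosome assembly genes tested, 19 rose (67.9%) and 2 fell, dhx30 and eral1 (median 2.03); ybey, an RNA processing factor, rose from 11.9 ± 4.64 to 128 ± 5.29 TPM (SD, n = 3 each; 3.37 on the log2 scale, limma adjusted p = 0.000212). Of 18 genes for mitochondrial aminoacyl-tRNA synthesis, 9 rose (50%) and 1 fell, lars2 (median 1.53), a share near that of all genes; mars2, the methionyl-tRNA synthetase, was listed at 0 in all 3 controls at 75% epiboly and stood at 9.92 ± 4.05 TPM at 1 dpf. Of 16 mitochondrial translation factors and messenger-binding proteins, 9 rose (56.2%, median 1.44); slirp, which binds mitochondrial messages, went from 45.8 ± 7.15 to 305 ± 17.6 TPM. Of 13 genes for upkeep and expression of mitochondrial DNA, 5 rose (38.5%, median 0.96), which is no more than among all genes. The 5 included ssbp1, the single-strand binding protein, at 92.9 ± 9.63 and 505 ± 19.97 TPM, and tfam, which packages that DNA, at 21.8 ± 9.37 and 114 ± 9.49 TPM. In control-MO libraries 33.4% of all genes tested rose, with a median of 0.86. There 1 of 5 further subunits (20%, median 0.55) and 8 of 28 assembly genes (28.6%, 0.80) rose. So did 6 of 18 aminoacyl-tRNA synthesis genes (33.3%, 0.97), 3 of 16 translation factors (18.8%, 1.00) and 5 of 13 mitochondrial DNA genes (38.5%, 1.22).

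The partners of the mitoribosome in making the respiratory chain moved as follows in controls. Of 86 nuclear oxidative phosphorylation genes tested, 77 rose (89.5%) and none fell (median 2.64). Of the 13 protein genes of the mitochondrial genome, 10 rose (76.9%) and 1 fell, mt-nd4l (median 1.16). Of 81 cytosolic ribosomal protein genes, 49 rose (60.5%) and 2 fell, rpl12 and rps12 (median 0.66), below the 0.99 of all genes tested. In control-MO libraries the cytosolic ribosomal protein genes instead had a median above those of the members and of all genes tested. There 76 of the 81 rose (93.8%) and 1 fell, with a median of 1.75. The members had 58.1% and 1.22 there, and all genes tested 33.4% and 0.86. Nuclear oxidative phosphorylation genes rose in 75 of 86 cases there (87.2%, median 1.91), and protein genes of the mitochondrial genome in 7 of 13 (53.8%, 0.70). Of 14 regulators of mitochondrial biogenesis, 4 rose (28.6%) and 5 fell in controls, the latter mych, gabpb2a, gabpb2b, pprc1 and esrra. The MYC-family gene mych fell from 265 ± 84.1 to 15.7 ± 2.35 TPM, and the family member myca rose from 0.323 ± 0.560 to 16.1 ± 1.79 TPM (limma adjusted p = 0.000124 and 0.000319). The gene gabpb2a, a subunit of the ETS-family factor GABP, fell from 36.4 ± 0.219 to 5.54 ± 1.99 TPM (limma adjusted p = 0.000894). For nrf1, a factor known in mammals to act on mitochondrial ribosomal protein genes, the values were 20.7 ± 12.7 and 11.2 ± 4.197 TPM, which did not differ beyond the spread (limma adjusted p = 0.231); nrf1 and the genes named as having fallen in the other lists were chosen after their values were seen.

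In control-MO libraries, 43 of the 74 members rose between the stages and none fell, by limma on 2 against 2 libraries. Among all 16567 genes tested, 33.4% rose and 7.25% fell. The members' median log2 difference was 1.22 against 0.86 for all genes tested. Stages did not overlap in 68 members that were higher at 1 dpf and in 2, mrps28 and mrpl27, that were lower, against 58% and 18.5% of all genes tested. The call count rested on single libraries. Without control-MO replicate 1 or 2 at 1 dpf most calls were lost, among the members and among all genes tested. The lone library left is then assumed to vary like the others. The members' median was then 1.04 and 1.32, against 0.78 and 0.74 for all genes tested. The call count was 30 after quantile normalization, 24 without the abundant features and 16 after TMM-style scaling, where mrps28 and mrpl27 were called lower. In the same order 2597 of 16567, 4287 of 17670 and 3256 of 16061 genes tested were called higher. The last of these shares was near the members' 16 of 74. The members' median minus that of all genes was 0.84, 0.21 and 0.30, against 0.36 in the reported fit. Between the same stages 11 of 13 blood genes (median log2 difference 9.51) and 10 of 11 muscle genes (median 5.49) were called higher by limma, and the summed blood share went from 0.00382 to 0.00735% to the 1.01 to 3.91% given above. Their part in the members' values was not tested.

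The gene mrps10 again had the smallest p, at 66.1 and 54.3 TPM at 75% epiboly and at 533 and 373 TPM at 1 dpf (2.88 ± 0.27, limma adjusted p = 0.00809). The gene mrpl52 went from 17.2 and 8.21 TPM to 240.2 and 185 TPM (4.03 ± 0.41). The gene mrpl53 stood at 73.1 and 95.8 TPM and then at 411 and 369 TPM (2.205 ± 0.24). All 3 rose without overlap, and mrpl53 started from a higher level than in controls. Large subunit genes mrpl30, mrpl16, mrpl20, mrpl33, mrpl17 and mrpl47 rose by 2.25, 3.15, 2.29, 2.01, 2.02 and 1.63 (limma adjusted p between 0.00872 and 0.00966). The small subunit gene mrps34, particular to mitochondria, went from 7.60 and 11.5 TPM to 75.6 and 59.4 TPM (2.71 ± 0.32). There were 3 members with negative differences that missed the threshold, mrps28 at -0.23, mrpl27 at -0.16 and mrps2 at -0.14 (limma adjusted p = 0.445, 0.558 and 0.763). For mrps2, whose bacterial relative joins the small subunit late in its assembly, the values were 29.9 and 17.4 TPM and then 21.2 and 20.1 TPM, which overlap; its sign turned without control-MO replicate 1 at 75% epiboly (0.23).

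Of the members called, 42 were called in both sets of controls, 61.8% of those called in controls and 97.7% of those called in control-MO libraries. The exception among the latter was mrps5. In neither set were mrpl1, mrpl21, mrpl51, mrps28 and mrps35 called. With a common stage effect over the 10 libraries of both sets, 69 members rose and none fell, against 47.6% and 11% of 16924 genes tested, with a median of 1.78 against 0.91. Over the 74 members the stage differences in both sets had a Pearson r of 0.591 and a Spearman rho of 0.598, a description across genes.

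The stage difference itself was smaller in control-MO libraries than in controls for 68 of the 74 members, and 12 of them passed the test of that difference (limma interaction contrast, 10 libraries). None was larger by that test. Among all 16924 genes tested, 9142 had a smaller difference in control-MO libraries by sign alone. By the test 2.84% had a larger and 3.02% a smaller one. The 2 sets of controls belong to separate experiments and only control-MO embryos were given a morpholino. Experiment, morpholino and table therefore cannot be told apart in this contrast. The members' median was -0.78 against -0.14 for all genes tested. The 12 were mrpl18 and mrpl35 among large subunit proteins with a bacterial relative, mrpl40, mrpl41, mrpl48, mrpl53 and mrpl54 among those particular to mitochondria, and mrps2, mrps11, mrps24, mrps25 and mrps26 in the small subunit.

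The gene mrps11 had the smallest p of this contrast. At 75% epiboly controls held 24.9, 41.3 and 21.2 TPM and control-MO libraries 63.0 and 62.2 TPM. At 1 dpf controls held 217, 216 and 194 TPM and control-MO libraries 86.6 and 70.3 TPM. The control-MO libraries were thus the higher ones at the early stage and the lower ones at the late stage, and the difference of differences was -2.54 ± 0.44 (limma adjusted p = 0.0116). The gene mrps25 stood at 15.9 and 21.1 TPM and then at 35.8 and 22.6 TPM in control-MO libraries, far from the 114 to 130 TPM of controls at 1 dpf (-2.49 ± 0.47, limma adjusted p = 0.0167). The differences were -3.05 ± 0.58 for mrpl53 and -2.81 ± 0.56 for mrpl48 (limma adjusted p = 0.0167 and 0.0189). By contrast mrps10, mrpl10, mrpl28 and mrpl17 had values of -0.15, 0.33, -0.03 and 0.01 in this contrast.

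**Figure D3:**
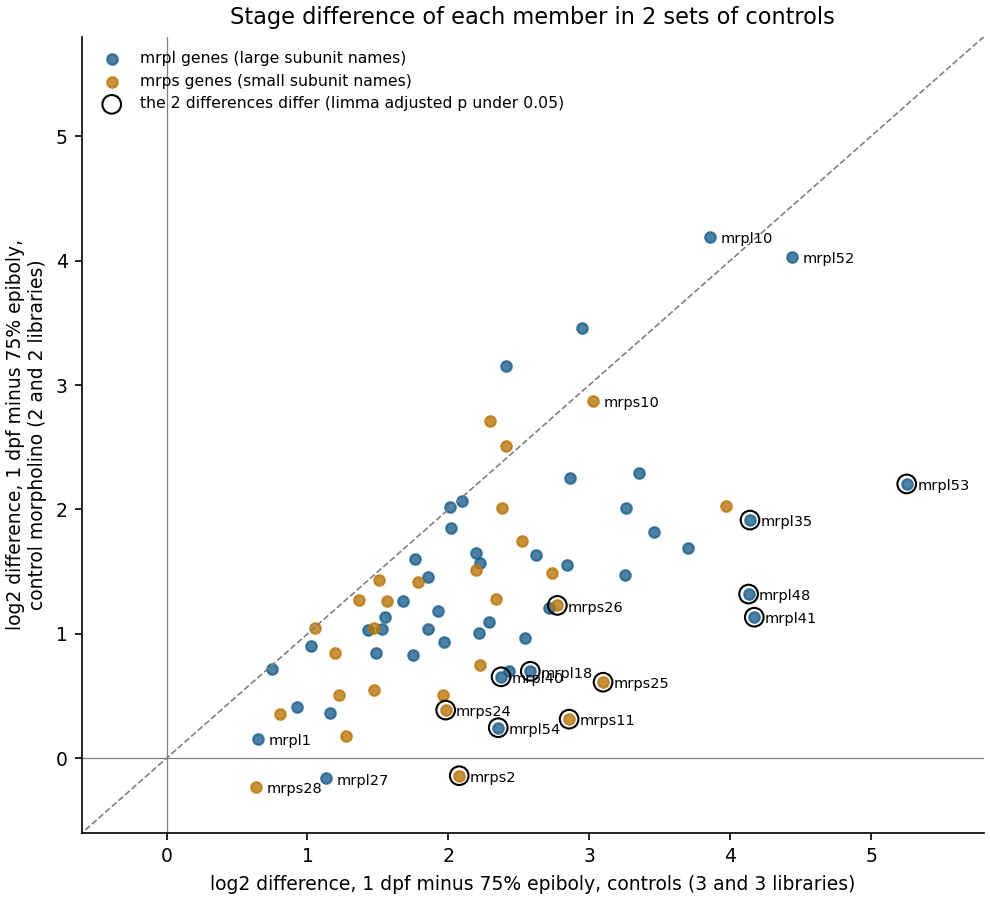
Log2 difference between 1 dpf and 75% epiboly of each of the 74 members in controls (horizontal axis, 3 and 3 libraries) and in control-MO libraries (vertical axis, 2 and 2 libraries); blue points are mrpl genes, ochre points mrps genes, and the dashed line marks equal differences. Of the points, 68 lie below the dashed line, and the 12 circled ones passed the limma test of the difference between the 2 sets.

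The count of 12 leaned on single libraries. It was 4, 4 and 3 without control replicates 1, 2 and 3 at 1 dpf. Among all genes 241 of 16709, 220 of 16726 and 219 of 16669 were then called smaller. Without control replicates 1, 2 and 3 at 75% epiboly it was 15, 9 and 17, against 575 of 17069, 575 of 17109 and 907 of 17092. Without any 1 control-MO library fewer members were called, and a lone library remained in that group. The members' median was then -0.88 and -0.67 without replicates 1 and 2 at 1 dpf, and -0.81 and -0.85 at 75% epiboly. All genes tested were at -0.16, -0.16, 0.04 and -0.29. Quantile normalization gave 7 members, against 615 of 16924 genes tested. A fit with no intensity trend gave 6, against 396. The control-MO libraries also differed from controls in marker content. At each stage 7 of 9 germ cell markers were lower in every control-MO library than in every control. At 1 dpf 1 of the 9 was higher. At 75% epiboly 6 of 11 yolk and endoderm, 5 of 9 neural and 4 of 13 blood genes were higher, with none lower. At 1 dpf 13 of 13 blood and 10 of 11 muscle genes were higher. So were 5 of 11 yolk and endoderm, 3 of 9 neural and 3 of 13 skin genes at that stage. Lower there were 1 yolk and endoderm and 1 skin gene. The summed blood share was then 1.01 to 3.91% against at most 0.00357%. The share of all genes separating these groups was not counted. The part of the markers in the members' smaller difference was not tested. In the same contrast 33 of 81 cytosolic ribosomal protein genes had a larger and 1, faub, a smaller stage difference in control-MO libraries. Smaller differences were also called for ybey (-2.91), mars2 (-2.76), cars2 (-2.82) and ssbp1 (-1.46), genes picked here after their values were seen.

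After loss of smad1 no member passed the test in any of the 4 comparisons. In smad1-cKO PGCs at 75% epiboly 0 of 74 members were called by limma, as were 0% of 13006 genes tested. An unadjusted p under 0.05 was found for 3 members and for 236 of all genes tested. The members' median log2 difference was -0.07, the same as the -0.07 of all genes tested. Above 0 were 26 members and 5627 of the 13006 genes tested. Libraries did not overlap in 1 member that was higher and 3 that were lower, against 1.85% and 3.36% of all genes tested. A single member's difference had a median standard error of 0.47 here, so that small changes were not detectable. Larger ones could be missed too. The targeted gene smad1 stood at 9.68, 13.5 and 17.9 TPM in controls and at 2.68, 1.11 and 5.09 TPM in cKO libraries. It did not overlap and was not called either.

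The 3 members with an unadjusted p under 0.05 at 75% epiboly were all in the large subunit and lower in the cKO. The gene mrpl58 was listed at 0 in all 3 cKO libraries, against 1.503, 1.70 and 5.39 TPM in controls (limma adjusted p = 0.99953). At this stage it was also at 0 in control-MO replicate 2 and smad1-KD replicate 1. The gene mrpl11, for a protein at the base of the stalk, stood at 16.3, 31.7 and 14.03 TPM in controls, while cKO libraries held 5.21, 2.26 and 14.5 TPM (-1.58 ± 0.66), with overlap. The gene mrpl12 stood at 37.1, 53.4 and 44.3 TPM and at 23.0, 25.4 and 19.96 TPM (-0.94 ± 0.42), without overlap. At 1 dpf mrpl58 stood at 32.4, 24.2 and 29.9 TPM in the cKO against 27.8, 31.5 and 20.3 TPM in controls, and all 3 genes overlapped between the groups, with differences of 0.13 for mrpl58, 0.03 for mrpl11 and -0.13 for mrpl12. The highest differences without a call were 0.93 ± 0.59 for mrpl41 and 0.63 ± 0.41 for mrpl38.

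In smad1-cKO PGCs at 1 dpf the 74 genes took 1.51, 1.36 and 1.53% of all TPM, below the 3 controls, at 0.891 of their mean share. No single member was called by limma, and 1 of 17573 genes tested was, smad1 itself (0.00569%). Pairing the same-numbered libraries gave 14 called genes, none of them a member. The members' median log2 difference was -0.14 against -0.01 for all genes tested. Above 0 were 15 members and 8485 of the 17573 genes tested. In 17 members every cKO library lay below every control, against 5.78% of all genes tested, and in 2, mrps35 and mrpl51, above, against 5.66%. By class the medians were -0.20 for large subunit proteins with a bacterial relative, -0.09 for those particular to mitochondria, and -0.09 and 0.03 for the same classes of the small subunit.

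At 1 dpf 10 members had an unadjusted p under 0.05, all lower in the cKO, against 1122 of all 17573 genes tested in either direction. The gene mrps17 had the smallest, with controls at 259, 260.4 and 266 TPM and cKO libraries at 181, 159 and 203 TPM (-0.54 ± 0.13, limma adjusted p = 0.379). The gene mrpl4 stood at 287, 249 and 254 TPM and at 209, 186 and 187 TPM (-0.44 ± 0.13, limma adjusted p = 0.490). Neither overlapped, and the controls of mrps17 lay within a narrow band. The genes mrpl39 and mrps23 differed by -0.40 ± 0.13 and -0.40 ± 0.15 (limma adjusted p = 0.602 and 0.695). In the other direction mrps35 had controls at 18.9, 18.5 and 17.9 TPM and cKO libraries at 21.4, 39.2 and 24.4 TPM (0.55 ± 0.26, limma adjusted p = 0.829).

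The skin markers summed to 0.0280 to 0.443% in controls and 0.0260 to 0.731% in the cKO at 1 dpf, and all 13 had positive differences (median 2.12). Blood genes summed to 0.00175 to 0.00357% and 0.00316 to 0.0262%, with 9 of 9 tested above 0 (median 2.39), and yolk and endoderm genes to 0.000784 to 0.00194% and 0.000607 to 0.0167%, with 7 of 7 above 0 (median 2.53). In each of these lists the highest sums were those of cKO replicates 1 and 2, none of their genes was called by limma, and their part in the members' lower share was not tested. Without the 3 libraries with the most skin keratin, control replicate 1 and cKO replicates 1 and 2, a choice made after seeing the data, the members' median was -0.09 against 0.02 for all genes tested, with 24 members above 0. That leaves 2 controls and 1 cKO library, whose spread is taken from the controls, and smad1 itself was then not called, so nothing is read from the absence of calls. In the lists of other genes, none was called, and the 13 protein genes of the mitochondrial genome all had negative differences, with a median of -0.26. Nuclear oxidative phosphorylation genes had a median of -0.10, with 69 of 87 below 0. Medians were -0.18 for the further subunits, -0.17 for assembly, -0.21 for aminoacyl-tRNA synthesis, -0.23 for mitochondrial DNA and -0.12 for biogenesis regulators. Translation factors and cytosolic ribosomal proteins were at -0.02 and -0.01, against -0.01 for all genes tested.

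**Figure D4:**
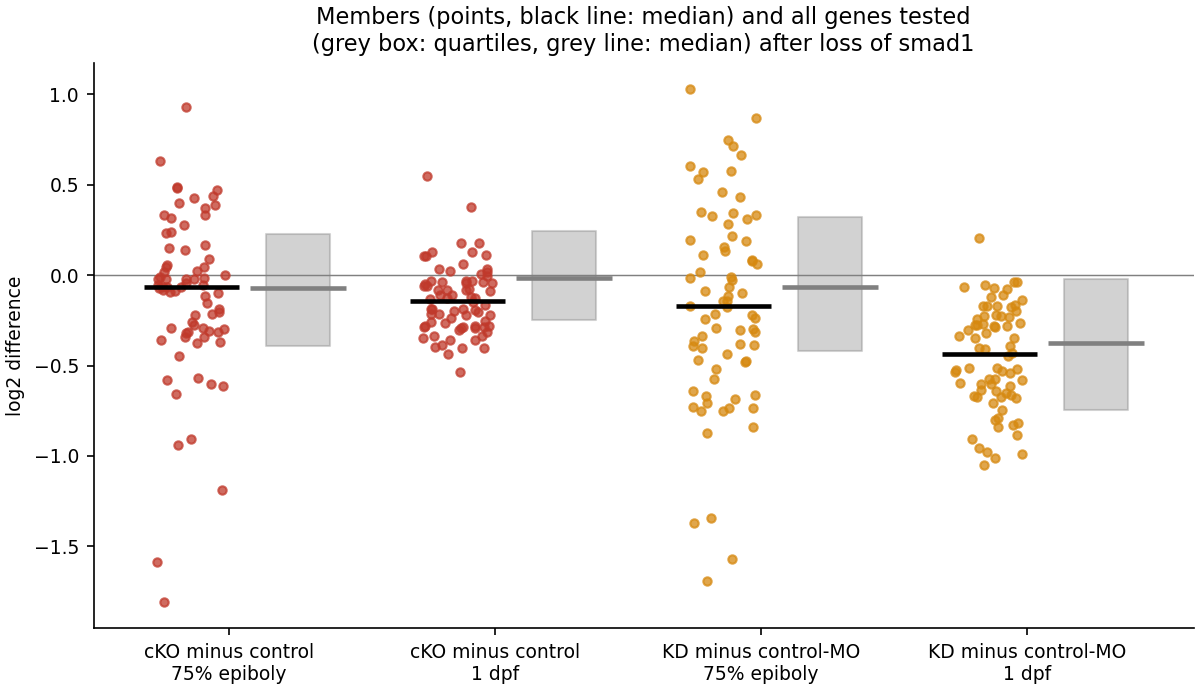
Log2 difference of each of the 74 members after loss of smad1 in 4 comparisons (points; red, cKO, n = 3 and 3; ochre, KD, n = 2 and 2), with the members' median as a black line and the quartiles and median of all genes tested as a grey box and line. The members' median lies at -0.07 and -0.14 in the cKO and at -0.17 and -0.44 in the KD, where all genes tested are at -0.06 and -0.38.

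In smad1-KD PGCs at 75% epiboly no member was called by limma, as were 0% of 12968 genes tested. An unadjusted p under 0.05 was found for 1 member and for 164 of all genes tested. Pairing the same-numbered libraries called 8 genes higher and 19 lower, none of them a member. The targeted gene smad1 stood at 9.96 and 9.80 TPM in control-MO and at 2.60 and 4.23 TPM in KD libraries. The members' median was -0.17 against -0.06 for all genes tested. Without KD replicate 2 both moved up, to 0.09 and 0.35, and without KD replicate 1 both moved down, to -0.24 and -0.40, so that the members lay below all genes in the first case and above them in the second. Libraries did not overlap in 5 members that were higher and 15 that were lower, against 7.37% and 14.9% of all genes tested. The gene mrpl33 was lowest by p, at 49.5 and 68.5 TPM in control-MO and at 16.5 and 30.1 TPM in KD libraries (-1.34 ± 0.58, limma adjusted p = 0.99979). Both mrpl11 (-1.37 ± 0.67) and mrpl4 (-1.69 ± 0.84) were lower without overlap, with mrpl4 at 34.6 and 28.3 TPM against 3.13 and 23.2 TPM. The gene mrpl1 was higher without overlap (0.75 ± 0.63).

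In smad1-KD PGCs at 1 dpf the 74 genes took 0.781 and 0.514% of all TPM against 0.926 and 0.765% in control-MO libraries, which overlap. No member was called by limma, as were 0% of 17141 genes tested, and no member but 1697 of all genes had an unadjusted p under 0.05. Pairing the same-numbered libraries called 130 genes higher and 736 lower, none of them a member. Of the members 73 had negative differences, with a median of -0.44, but so had 13057 of the 17141 genes tested, with a median of -0.38. Libraries did not overlap in 31 members that were lower and 0 that were higher, against 34.7% and 5.57% of all genes tested. After quantile normalization the members' median was -0.07, after TMM-style scaling 0.02, and without KD replicate 2 -0.14.

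The smallest p at 1 dpf in the KD belonged to mrps2, at 21.2 and 20.1 TPM in control-MO and 9.55 and 9.34 TPM in KD libraries (-1.05 ± 0.51, limma adjusted p = 0.547). It was followed by mrpl17 at 200.3 and 162 against 111 and 73.9 TPM (-0.98 ± 0.48, limma adjusted p = 0.552) and by mrpl4 at 126 and 84.2 against 66.0 and 40.1 TPM (-0.99 ± 0.52). These 3 genes were lower without overlap. The 1 member above 0 was mrps21, at 318 and 370.2 TPM against 518 and 303 TPM, with overlap. Here 12 of 13 blood genes were higher and 10 of 11 muscle genes lower in every KD than in every control-MO library, and smad1 itself stood at 201 and 193 TPM against 170.3 and 70.3 TPM. The part of these in the members' values was not tested.

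Tests of whether the effect of smad1 loss differed between the stages called no member, nor any gene, in the cKO (0% of 16567 genes) or the KD (0% of 16311). The members' medians were -0.07 against 0.07 for all genes in the cKO and -0.32 against -0.30 in the KD. In the cKO 4 members had an unadjusted p under 0.05, as did 628 of all 16567 genes tested. They were mrpl58 at 1.94 ± 0.58, mrpl11 at 1.62 ± 0.72, mrpl12 at 0.81 ± 0.37 and mrpl38 at -0.94 ± 0.41 (limma adjusted p = 0.99984 each). In the KD no member had an unadjusted p under 0.05, against 695 of all genes tested.

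**Figure D5:**
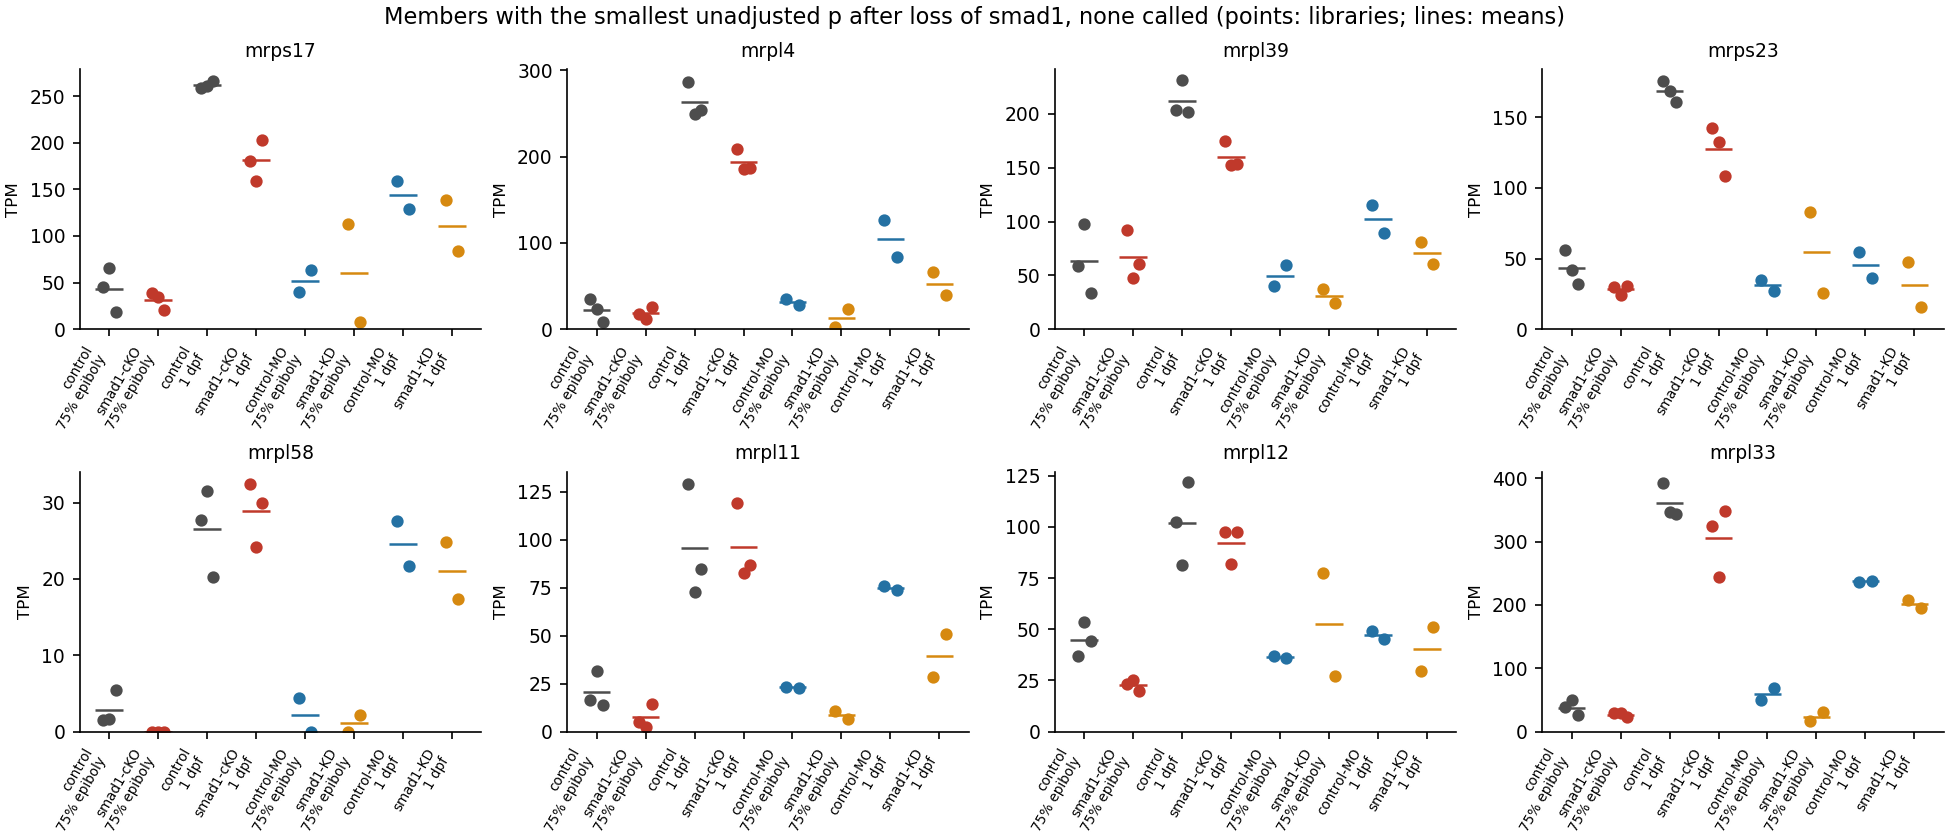
TPM of 8 members named in the comparisons of smad1 loss in every library of the 8 groups, on linear axes that start at 0; points are libraries and lines are group means. The cKO libraries of mrps17, mrpl4, mrpl39 and mrps23 lie below the controls at 1 dpf. At 75% epiboly mrpl58 is at 0 in the 3 cKO libraries, in control-MO replicate 2 and in smad1-KD replicate 1. None of the 8 passed the test of smad1 loss.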

How the data were processed

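Sorted PGCs were profiled from full-length amplified cDNA in transposase-made libraries, per the labels' protocols. The authors deposited TPM, 1 column per library in 4 tables of 32520 genes. STAR 2.7.10b, StringTie 2.2.1 and GRCz11 (danRer11) appear in the submitters' processing notes, with no role given. TPM keep no depth. The amplicon tables were not used.

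Values were transformed to log2(TPM + 1). Genes averaging at least 1 TPM over the libraries of a fit were tested with limma 3.58.1 under R 4.3.3, with an intensity trend and Benjamini-Hochberg adjusted p under 0.05. Fits used the groups compared, and interactions the libraries of both comparisons. The fits were tested on simulated data. The members and lists were chosen with earlier results of these data known. Lists are given by counts and medians.

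The rule for named members took up to 10 called members by p per stage difference and 6 per smad1 comparison, the 4 with the smallest p in a direction with fewer than 3 calls, 4 per interaction, the 6 highest and 4 lowest by level, the mrps18 genes, members at 0 throughout a group, and up to 3 called genes per list. Other named members were chosen after their values were seen. Subunit classes follow bacterial and human homology. Coordinates and sequences are not given.

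The reported fits did not pair libraries. Pairing by replicate number was tried as an alternative, since same-numbered libraries of the cKO experiment had correlated deviations from the group means. The correlations were 0.176, 0.196 and 0.417 at 75% epiboly and 0.265, 0.105 and 0.272 at 1 dpf. The alternatives changed the scaling (quantile, TMM-style, or without 45 abundant features), the filter (none, or 5 TPM on average), the pseudocount (0.1), the trend, the replicate block or the libraries, each left out in turn.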

Additional observations from a re-analysis of the deposited data

Results flagged for a closer look

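The stage difference was smaller in control-MO libraries than in controls for 12 members by the limma interaction contrast, which singled them out here. On the log2 scale the difference of differences was -3.05 for mrpl53, -3.04 for mrpl41, -2.81 for mrpl48, -2.23 for mrpl35, -2.11 for mrpl54, -1.88 for mrpl18 and -1.72 for mrpl40 in the large subunit. In the small subunit it was -2.54 for mrps11, -2.49 for mrps25, -2.22 for mrps2, -1.59 for mrps24 and -1.55 for mrps26.

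In 3 members the cKO and the KD moved opposite ways without overlap at the same stage, and neither change passed its test. They were 1 of 74 members (1.35%) at 75% epiboly and 2 (2.7%) at 1 dpf, against 0.538% of 11707 and 1.98% of 15532 genes tested in both experiments, so the count at 1 dpf is near that of all genes and that at 75% epiboly is a single gene. The gene mrpl40 had a log2 difference of 0.331 in the cKO and -0.392 in the KD at 75% epiboly. At 1 dpf mrpl51 had 0.379 and -0.345, and mrps35 had 0.546 and -0.603. These differences between the experiments were not tested.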

How the results depend on the processing

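Each count or median of the members was taken again in each setting, and it stayed close to the reported value in 412 cases and moved in 32. Many of the 412 are counts of calls that were 0 in both fits, as after loss of smad1. The tally is therefore no measure of how stable the results are. The median stage difference was 1.53, 1.54 and 1.67 in controls, 0.82, 0.46 and 0.72 in control-MO libraries and 1.23, 1.12 and 1.27 in both sets after quantile normalization, after TMM-style scaling and without the abundant features. In control-MO libraries TMM-style scaling called 16 members higher and 2 lower, against 3256 and 2720 of 16061 genes tested. Without the abundant features 24 members were called higher, against 4287 of 17670 genes tested. The median of the smaller stage difference in control-MO libraries was -0.50 after quantile normalization, which called 7 members, and 6 were called with no intensity trend. Among 16924 genes tested these fits called 615 and 396 smaller. Quantile normalization and TMM-style scaling put the median of the KD at 1 dpf at -0.069 and 0.024, and that of the KD difference between the stages at 0.00038 and 0.14; the cause was not tested.

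Leaving out 1 library at a time gave 0 to 44 members called higher in control-MO libraries and 0 to 17 with a smaller stage difference there. It gave medians of -0.26 to 0.067 for the cKO at 75% epiboly, -0.21 to 0.11 for the cKO difference between the stages, -0.25 to 0.089 for the KD at 75% epiboly, -0.72 to -0.14 for the KD at 1 dpf and -0.60 to -0.035 for the KD difference between the stages. Signs turned in 4 named members that were not called. They were mrps2 in control-MO libraries (-0.14, range -0.52 to 0.23, the latter without replicate 1 at 75% epiboly), mrps34 in the cKO at 1 dpf (0.13, range -0.026 without control replicate 3 to 0.22), mrpl44 in the KD at 75% epiboly (0.66, range -0.15 without KD replicate 1 to 1.48) and mrps21 in the KD at 1 dpf (0.21, range -0.18 without KD replicate 1 to 0.59). Of the other results of single named members, 1031 kept direction and call, 29 kept direction but lost the call, and 2 gained it. Most of the lost calls came when a control-MO library at 1 dpf was left out, where a lone library remains in that group.

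With the replicate number as a block 68 members rose in controls, 40 in control-MO libraries and 68 in both sets. Among all genes tested 6938 of 16536, 5763 of 16567 and 7512 of 16924 rose. No member was called after loss of smad1. Over all genes the block called 14 in the cKO at 1 dpf and 866 in the KD at 1 dpf against 1 and 0. In the KD at 75% epiboly the block called 8 genes higher and 19 lower, against 0 without it. The KD experiment has 2 pairs a stage, with correlations of 0.0777 at 75% epiboly and 0.601 at 1 dpf. The labels do not state a pairing within a stage, and the reported fits leave it out. Same-numbered libraries of different stages did not correlate (-0.0018, -0.0055 and -0.0149 in controls), so no pairing across stages is assumed.

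With 2 or 3 libraries a group and no read depth in TPM, the precision of low members such as mrpl58 is unknown.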

Other observations

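There are 2 gene IDs that the expression tables leave without a name and that carry the symbols MRPL49 and MRPS12 in the gene name table, so they were not among the 74. MRPL49, a protein of the large subunit, stood at 64.2 ± 36.1 TPM in controls at 75% epiboly and at 198 ± 19.9 TPM at 1 dpf (SD, n = 3 each; 1.74 on the log2 scale, limma adjusted p = 0.00702). MRPS12, whose bacterial relative lies at the decoding centre of the small subunit, stood at 18.1 ± 8.23 and 99.9 ± 25.7 TPM (2.49, limma adjusted p = 0.00225). Neither passed the test in any comparison of smad1 loss. In control-MO libraries MRPL49 rose by 0.96 (limma adjusted p = 0.0365), and MRPS12 had a difference of 1.53 with a limma adjusted p of 0.0730.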
